A study of Mus musculus with 20 samples.

Results

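The response to spinal cord injury was followed here within the cords of mice fed PLX5622, by comparing the single-cell library of injured cords at 7 dpi and at 28 dpi with that of sham cords under the same diet, inside each cell cluster of the deposited count table. Cells were taken by the library name carried in the column headers of that table, and a cluster was compared where both libraries held at least 20 of its cells. This gave 1936 cells of the 21016 in the table, from 3 of its 6 libraries. Of the 14 clusters, 5 could be compared at both times, which makes 10 comparisons over 1166 cells.

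Female C57BL/6J mice, 8 to 10 weeks old, received chow with PLX5622 from 2 weeks before surgery until the end point, at 1200 ppm in the labels, while the study's methods print a different ppm figure. Surgery was a laminectomy at T9 alone (sham) or with a contusion of the cord at that level (SCI). Cells were dissociated from 1 cm of unperfused cord and captured as 10x droplets, and each library pooled several mice. The labels of the sham library give both 7 and 28 days, so that 1 sham library is the reference for both times and an error in it enters both ratios. Libraries of mice fed vehicle chow with the same surgeries are given beside the PLX5622 values, and they share no control cells with them. The drug acts on every cell that uses the Csf1 receptor, so that its direct action and the lack of microglia cannot be told apart in these libraries.

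PLX5622 blocks the kinase of Csf1r, the receptor whose ligands Csf1 and Il34 keep microglia alive. Cells of the microglia cluster that remain under the drug may be survivors, returning cells or monocyte-derived cells placed in the cluster, and the libraries cannot tell these apart. After a contusion, microglia are known to lose their resting surface receptors and to take up lipid, astrocytes to build up intermediate filaments around the lesion, endothelial cells to lose and rebuild a barrier, and ependymal cells around the central canal to divide in some settings.

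Because each condition is 1 pooled library, no test between mice was possible, no p-value is given, and every range below is a 95% interval of counting error only. For each gene, the UMIs of all cells that a cluster held in a library were added up and scaled by the cluster's total in that library, giving CPM. Ratios are log2 of injured over sham CPM. A gene was measured where the pair of libraries held at least 100 of its UMIs together, and "past 2-fold" means a log2 ratio of at least 1 in either direction. Some genes reach the minimum only through the library where they are high, so the counts describe the measured genes and are not evidence for a list. Gene lists had 1 fixed composition over all clusters, and their medians are to be read beside that of all measured genes. The latter is given for each PLX5622 comparison and, where a vehicle median is given, for vehicle too. More genes were measured in vehicle in each comparison, so these medians of the diets are over unlike genes.

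The 3 libraries held 492, 504 and 940 cells in sham, 7 dpi and 28 dpi cords, with 2606149, 4353923 and 3697581 UMIs. Median depth per cell was lowest at 28 dpi in each of the 5 clusters. Cells of more than 3000 genes numbered 260 in these libraries, and the deepest single cell held up to 22.4% of the UMIs of a cluster (astrocytes at 7 dpi), so the share held by 1 cell is given beside many of the genes named. Barcodes shared between PLX5622 libraries numbered 1. Of the detected markers, 5 of 6 had their highest level in the microglia cluster, and each detected marker of endothelial cells (6 of 6), astrocytes (6 of 6), T cells (3 of 3), NK cells (4 of 4) and ependymal cells (6 of 6) was highest in the cluster of that name.

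The make-up of the cells differed between sham and injured cords. Astrocytes were 204 of 492 cells in sham cords (41.5%, 37.1 to 46.0%), 39 of 504 at 7 dpi (7.74%, 5.56 to 10.4%), with 107 of 940 at 28 dpi (11.4%, 9.42 to 13.6%). Cells of the microglia cluster were 29 in sham cords (5.89%, 3.98 to 8.36%), 61 at 7 dpi (12.1%, 9.39 to 15.3%) and 126 at 28 dpi (13.4%, 11.3 to 15.8%). The astrocyte interval of sham cords thus lay above both injured ones and that of microglia below both. T cells and NK cells were near equal in sham and 7 dpi cords (21 cells, 4.27%, and 23 cells, 4.56%) and reached 151 cells at 28 dpi (16.1%, 13.8 to 18.6%). Endothelial cells numbered 76 (15.4%), 81 (16.1%) and 65 (6.91%, 5.38 to 8.73%), so their share was lower at 28 dpi only. Ependymal cells kept overlapping intervals at 9.55%, 10.3% and 8.94%. Shares within 1 library add to a fixed total, and fewer cells of a type and less efficient capture of that type cannot be told apart. Among the 9 clusters that were not compared, monocyte-derived macrophages went from 9 cells (1.83%) in sham cords to 100 (19.8%) and 161 (17.1%). Monocytes went from 14 cells to 29 and 63. The oligodendrocyte lineage went from 4 cells (0.813%) to 28 (5.56%) and 39 (4.15%), and the cluster of pericytes and fibroblasts from 19 to 10 and 12.

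**Figure D1:**
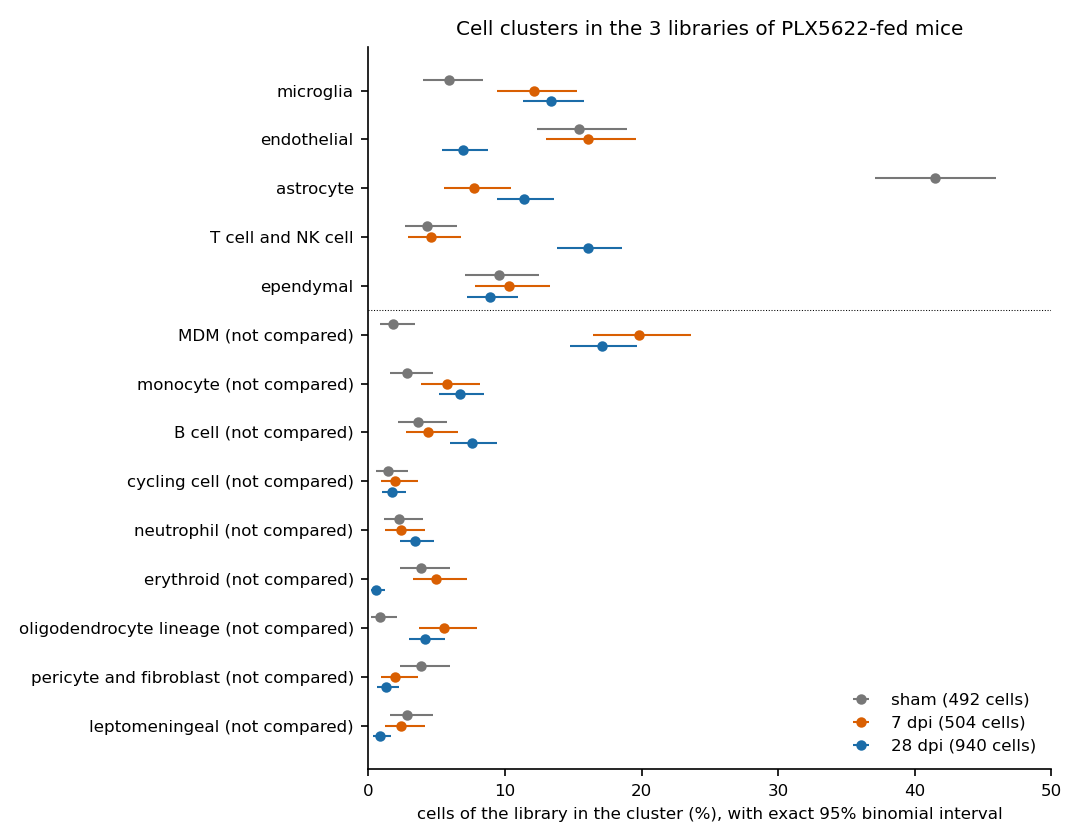
Share of cells (percent of the library, x axis) in each of the 14 clusters in the sham (grey), 7 dpi (orange) and 28 dpi (blue) libraries of PLX5622-fed mice, with exact 95% binomial intervals as error bars and the 5 compared clusters above the dotted line. Astrocytes are at 41.5% in the sham library and at 7.74% and 11.4% after SCI, and T and NK cells are at 16.1% at 28 dpi.

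The microglia cluster had higher levels of lipid-handling genes and lower levels of resting receptors at both times. Of 601 measured genes at 7 dpi, 42 (6.99%) were higher and 48 (7.99%) lower by 2-fold or more, with a median over all of 0.00. At 28 dpi, 78 of 672 (11.6%) were higher and 59 (8.78%) lower, with a median of -0.05. These splits rest on the scaling. With edgeR's TMM factors over all genes they became 159 higher and 13 lower at 7 dpi, and 186 and 19 at 28 dpi, because those factors moved the median of all measured genes to 0.48 and 0.43. DESeq2's size factors gave 146 and 16, then 183 and 20, while either kind of factor taken over the measured genes alone gave 38 to 43 higher and 47 to 58 lower at 7 dpi.

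Among the receptors that mark resting microglia, P2ry12, a purinergic receptor that guides their processes, stood at 2111 CPM in sham cords against 454 at 7 dpi and 745 at 28 dpi. Its log2 ratios were -2.22 (-2.50 to -1.94) and -1.50 (-1.74 to -1.27). Both injured libraries were well below sham, with 7 dpi the lowest, and the median over single cells was 1955, 331 and 491 CPM within the cell. After thinning each cell to 1000 UMIs, P2ry12 was seen in 80.0% of sham cells (59.3 to 93.2%), 38.9% at 7 dpi (25.9 to 53.1%) and 45.1% at 28 dpi (35.8 to 54.8%). Tmem119, a membrane protein used to tell microglia from other macrophages, was at 1737, 428 and 626 CPM, with ratios of -2.02 (-2.31 to -1.73) and -1.47 (-1.73 to -1.22). P2ry13, a second purinergic receptor, was at 480.1, 93.9 and 158 CPM, a ratio of -2.35 (-2.98 to -1.75) at 7 dpi. Siglech, a lectin of the resting state, had ratios of -1.72 and -1.03.

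Not every gene of this state lay as far from sham. Cx3cr1, the receptor for the neuronal chemokine fractalkine, was at 4554, 2984 and 3281 CPM, ratios of -0.61 (-0.75 to -0.47) and -0.47 (-0.61 to -0.34). Csf1r, the target of the drug, was at 3855, 2238 and 1917 CPM, ratios of -0.78 (-0.94 to -0.63) and -1.01 (-1.17 to -0.85), so it was detected in quantity in each library. Cst3, a secreted protease inhibitor, was at 47354, 23871 and 32065 CPM. Of the homeostatic list, 6 of 15 measured members were lower past 2-fold at 7 dpi (median -0.99) and 7 of 16 at 28 dpi (median -0.99), none was higher, and with TMM factors 4 and 2 remained past 2-fold.

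The lipid and disease-associated genes lay on the other side. Apoe, the main lipid carrier of the nervous system, was at 4363 CPM in sham cords against 73719 at 7 dpi and 35399 at 28 dpi. The ratios were 4.08 (3.96 to 4.20) and 3.02 (2.90 to 3.14). It had a UMI in 22 of 29 sham cells and in 61 of 61 cells at 7 dpi, and the median over single cells was 3058, 52547 and 24288 CPM, so the higher level was spread over the cluster. Cd63, a tetraspanin of lysosomes, was at 635, 1797 and 1650 CPM, ratios of 1.50 (1.18 to 1.83) and 1.38 (1.06 to 1.71). Fth1, the heavy chain of the iron store ferritin, was at 3798, 8267 and 7969 CPM. Cst7, which encodes the protease inhibitor cystatin F, had 4 UMIs in sham cords against 139 and 290, ratios of 3.68 (2.29 to 5.58) and 4.58 (3.21 to 6.46).

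Genes shared with monocyte-derived macrophages (MDMs) also appeared in this cluster. Spp1, the secreted phosphoprotein osteopontin, had 1 UMI in sham cells against 593 at 7 dpi and 131 at 28 dpi, a ratio of 7.78 (5.29 to 13.08) at 7 dpi. In MDMs Spp1 was at 46905 CPM at 7 dpi, and free RNA of broken cells adds UMIs to every droplet. At 7 dpi 20 of 23 T and NK cells had a Spp1 UMI (median depth 3617 UMIs), as did 55 of 61 cells of the microglia cluster (6448 UMIs). After thinning these shares were 30.4% (13.2 to 52.9%) and 51.9% (37.8 to 65.7%), with overlapping intervals. With 23 T and NK cells their interval is wide, so the shares neither set the clusters apart nor show them to be equal. Summed Spp1 at 7 dpi was 411 CPM in T and NK cells (40 UMIs) and 1547 CPM in the microglia cluster. In the erythroid cluster it was 2756 CPM, with a UMI in 20 of 25 cells at a median depth of 707 UMIs. The part of free RNA in these levels was not tested. Apoc1, an apolipoprotein, had no UMI in sham cells and 164 at 7 dpi, which gives a ratio of 4.34 with the sham library set to 3 counts. Trem2, the lipid-sensing receptor of this state, was at 2443, 3094 and 2545 CPM and stayed within 2-fold. Of the 28 listed disease-associated and lipid genes, 13 of 20 measured were higher past 2-fold at 7 dpi (median 1.49) and 12 of 19 at 28 dpi (median 1.54), and 11 to 14 with TMM factors, with each cell counted alike, or without doublets, cells of more than 3000 genes or the deepest cells. The complement and Fc receptor list held 0 of 9 past 2-fold at either time, with medians of -0.11 and -0.28 that turned to 0.38 and 0.20 with TMM factors.

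**Figure D2:**
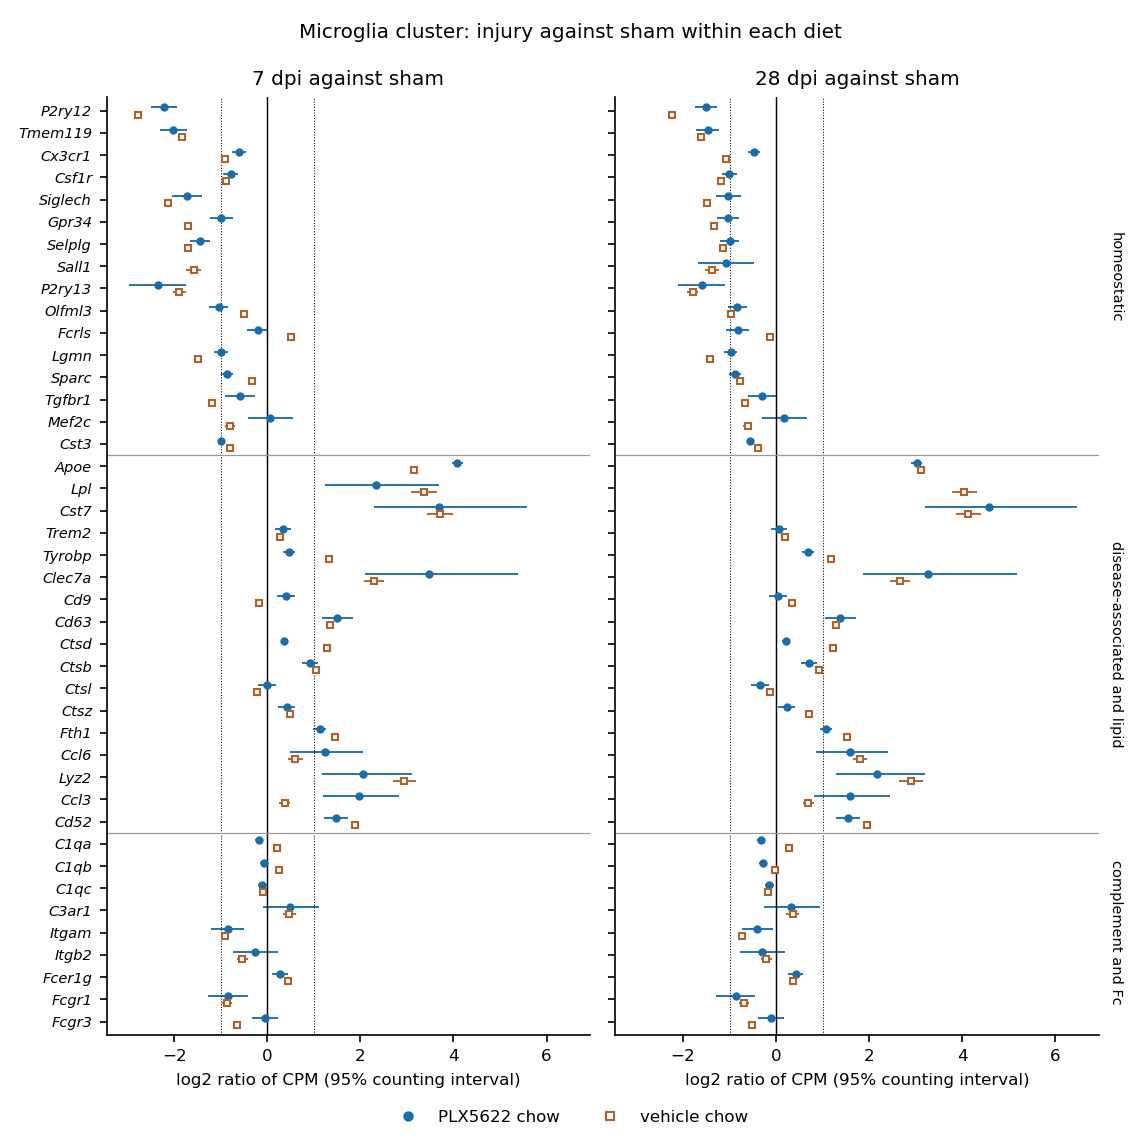
Log2 ratio of injured over sham CPM (x axis) in the microglia cluster for genes of the named lists with at least 4 sham UMIs, with 95% counting intervals, for PLX5622 (filled blue circles) and vehicle (open orange squares). Dotted lines mark 2-fold; Apoe is at 4.08 at 7 dpi under PLX5622 and P2ry12 at -2.22.

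The interferon-induced genes Ifi27l2a and Bst2 and the chemokine Ccl3 were higher as well. Ifi27l2a, an interferon-induced gene, was at 91.8, 550.4 and 626 CPM, ratios of 2.58 (1.78 to 3.52) and 2.77 (1.97 to 3.70). Bst2, which tethers budding virus, was at 120.0, 305 and 321 CPM. Of the interferon list, 2 of 3 measured members passed 2-fold at 7 dpi and 3 of 4 at 28 dpi. Ccl3, a chemokine for myeloid cells, was at 106, 415 and 316 CPM, ratios of 1.97 (1.20 to 2.84) and 1.58 (0.81 to 2.46). Cd52, a small surface glycoprotein, was at 974, 2713 and 2843 CPM, and Lyz2, the lysozyme of macrophages, at 77.7, 323 and 349 CPM. Cd74, the invariant chain of MHC class II, was at 84.7 CPM in sham cords and 75.6 at 7 dpi and reached 405 at 28 dpi, a ratio of 2.26 (1.42 to 3.24). It had a UMI in 8 of 29 sham cells and 35 of 126 cells at 28 dpi, where 1 cell held 28.7% of the UMIs. After thinning the shares were 8.00% (0.98 to 26.0%) and 14.2% (8.32 to 22.0%), so the intervals overlap.

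Several immediate early genes, a class that also responds to dissociation, were higher in the sham library. Btg2, an antiproliferative gene of this kind, was at 2669, 720.0 and 358 CPM, ratios of -1.89 (-2.12 to -1.66) and -2.90 (-3.18 to -2.62). Jun, a subunit of the AP-1 transcription factor, was at 2111, 783 and 509.6 CPM, and its partner Fos at 720.2, 566 and 200.1. Fos thus lay close to sham at 7 dpi (-0.35, -0.69 to 0.01) and below it at 28 dpi (-1.85, -2.28 to -1.42). Klf2, a factor of quiescent cells, had ratios of -1.05 and -3.20, Ier5 of -1.99 and -3.06, and Txnip, a thioredoxin inhibitor, of -2.25 and -2.63. Of the list, 5 of 15 were lower past 2-fold at 7 dpi (median -0.78) and 8 of 12 at 28 dpi (median -1.70), and with TMM factors 1 and 7. Ribosomal protein genes lay a little above sham together, with medians of 0.71 and 0.78 and 7 and 18 of 78 past 2-fold. Of these Rpl34 led at 28 dpi (141, 277 and 556 CPM, ratio 1.98). With TMM factors 64 and 67 of the 78 were past 2-fold.

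Vehicle cords shared many of these genes, with ratios of other sizes. Across the 601 genes measured under both diets at 7 dpi, Pearson's r of the log2 ratios was 0.85, and over 672 genes at 28 dpi it was 0.83. Genes within 1 library are not independent, so r is a description. Of the 42 genes higher under PLX5622 at 7 dpi, 28 were also past 2-fold in vehicle, as were 33 of the 48 lower ones, where 12.6% of the same 601 genes were higher in vehicle and 16.5% lower. The ratio of Apoe was larger under PLX5622 at 7 dpi (4.08 against 3.15, a difference of 0.81 to 1.05), and at 28 dpi it was 3.02 against 3.12, a difference of -0.22 to 0.02. P2ry12 was lower by less under PLX5622, -2.22 against -2.78 at 7 dpi (difference 0.28 to 0.84) and -1.50 against -2.24 at 28 dpi (difference 0.50 to 0.97). The median of all genes measured in vehicle was -0.54 at 7 dpi and -0.44 at 28 dpi, against 0.00 and -0.05 under PLX5622. That shift has the direction of the P2ry12 differences, but the sets are unlike, 6623 and 7162 genes in vehicle against 601 and 672. Its part in the P2ry12 differences was not tested. Ctsd, a lysosomal protease, was at 11579, 14913 and 13360 CPM under PLX5622, ratios of 0.36 and 0.21, against 1.28 and 1.22 in vehicle. For immediate early genes 5 of 15 were lower at 7 dpi under PLX5622 and 13 of the same 15 in vehicle, beside the 7.99% and 16.5% of all genes that were lower, with Jun at -1.43 against -2.54 and Egr1 at 0.10 against -1.89. Ccl3 was at 1.97 against 0.37 and Ccl4, with 1 sham UMI, at 5.62 (3.12 to 10.93) against 1.59. The intervals of these differences cover counting error only. Under PLX5622, hemoglobin transcripts summed to 551 CPM in sham cells, 412 at 7 dpi and 27.9 at 28 dpi. At most 4 of 6 myelin genes were detected in any PLX5622 library, with Mog and Mobp at 0 in each. In vehicle 5 of 6 were detected at 7 dpi and at 28 dpi. The part of either in these ratios was not tested.

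**Figure D3:**
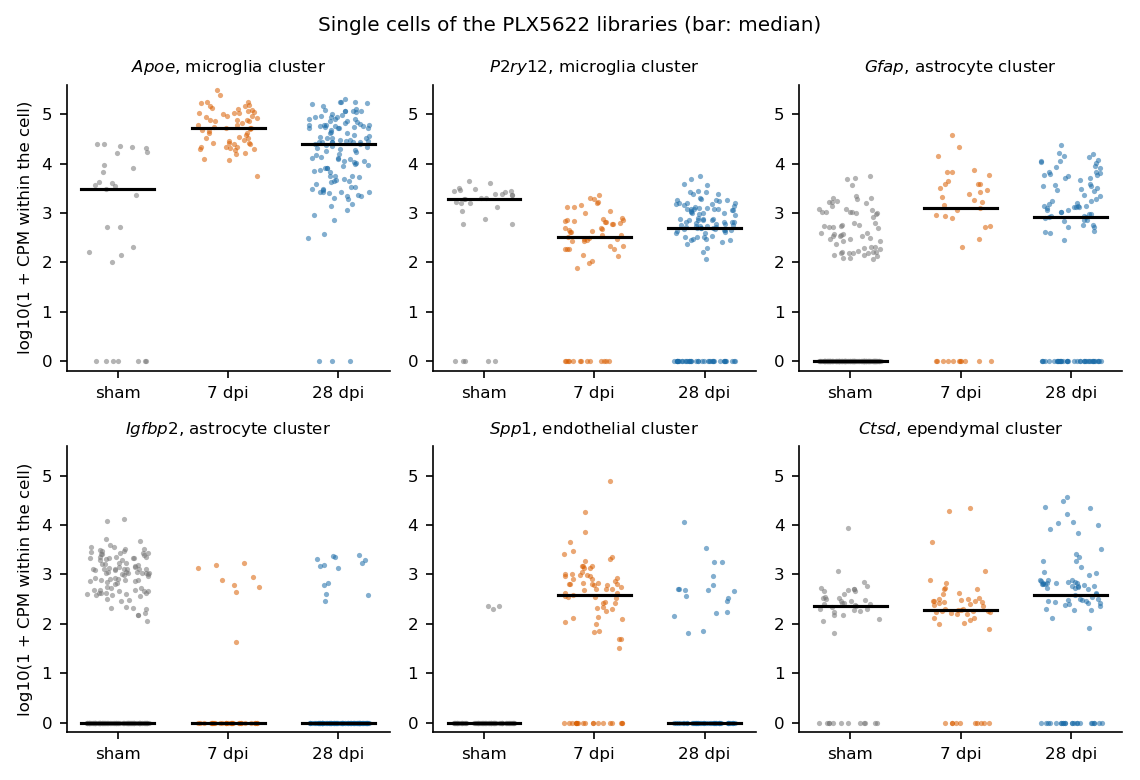
Level of 6 genes within single cells (y axis, log10 of 1 + CPM within the cell) in sham, 7 dpi and 28 dpi libraries of PLX5622-fed mice, each dot 1 cell and each bar the median. Apoe and P2ry12 are shown in the microglia cluster, Gfap and Igfbp2 in astrocytes, Spp1 in endothelial cells and Ctsd in ependymal cells. The median of Ctsd is 224, 192 and 390 CPM, so at 7 dpi it is not above sham while its summed CPM is.

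Astrocytes combined more intermediate filament with fewer transcripts of cholesterol synthesis. At 7 dpi 123 of 1048 measured genes (11.7%) were higher and 100 (9.54%) lower past 2-fold, with a median of -0.03, from 39 injured cells. At 28 dpi 56 of 1151 were higher (4.87%) and 56 lower (4.87%), with a median of 0.05. TMM factors over all genes, which moved these medians to -0.21 and -0.18, gave 87 higher and 144 lower at 7 dpi and 21 and 99 at 28 dpi. DESeq2's factors gave 91 and 138, then 22 and 93, and TMM factors over measured genes gave 41 and 64 at 28 dpi.

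Gfap, the intermediate filament of reactive astrocytes, was at 237 CPM in sham cords against 4799 at 7 dpi and 2639 at 28 dpi. The ratios were 4.34 (4.07 to 4.62) and 3.48 (3.19 to 3.77). The deepest cell at 7 dpi held 65.9% of its Gfap UMIs, and without the deepest cell of each library the ratios were 3.15 and 3.51. Cells with a UMI were 65 of 204, 28 of 39 and 67 of 107, and after thinning 15.0% (9.25 to 22.4%), 54.2% (32.8 to 74.5%) and 58.9% (45.0 to 71.9%). Gfap was thus higher in many cells at both times, and without 1 cell the ratio at 7 dpi was no longer the larger. Vim, the filament vimentin, had 7 sham UMIs and 268 at 7 dpi, a ratio of 7.74 (6.68 to 9.07), of which 93.3% were in that cell, and 4.41 without it. C4b, a complement component, was at 13.7, 238 and 627 CPM, a ratio of 5.52 (4.48 to 6.77) at 28 dpi from 30 cells. Fabp7, the fatty acid binder of immature astrocytes, was at 224, 771 and 218 CPM. Sox9, the astrocyte lineage factor, stayed near sham with 551, 476 and 640.0 CPM. Of the 22 listed reactive genes 4 of 5 measured were higher at 7 dpi (median 4.34) and 2 of 4 at 28 dpi (median 1.85). Without the deepest cells 2 of 3 passed at 7 dpi.

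Transcripts of cholesterol synthesis, a pathway that astrocytes run to supply lipid to neurons and oligodendrocytes, were lower after SCI. Msmo1, a sterol oxidase of the pathway, was at 846 CPM in sham cords against 267 at 7 dpi and 317 at 28 dpi. Its ratios were -1.67 (-2.27 to -1.12) and -1.42 (-1.88 to -0.99), with both injured libraries clearly below sham. Insig1, the sterol-regulated inhibitor of the pathway's activator, was at 408, 133 and 119 CPM, ratios of -1.61 (-2.51 to -0.84) and -1.78 (-2.56 to -1.09). Fdps, which makes farnesyl diphosphate, had ratios of -2.37 and -1.57, and Hmgcs1, an early enzyme of the pathway, of -0.85 and -0.38. Of the 18 listed genes, 9 of 10 measured were lower past 2-fold at 7 dpi (median -1.70) and 8 of 11 at 28 dpi (median -1.20), none was higher, and the medians stayed negative with TMM factors and under each cell filter applied to this list. With each cell counted alike 6 of 10 and 4 of 11 passed. Abca1, which exports cholesterol to lipoproteins, was at 108, 943 and 416 CPM, ratios of 3.13 (2.66 to 3.61) and 1.95 (1.42 to 2.48), with 64.6% of the 7 dpi UMIs in 1 cell. Apoe was at 14993, 31252 and 21976 CPM, ratios of 1.06 (1.00 to 1.12) and 0.55 (0.49 to 0.61).

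**Figure D4:**
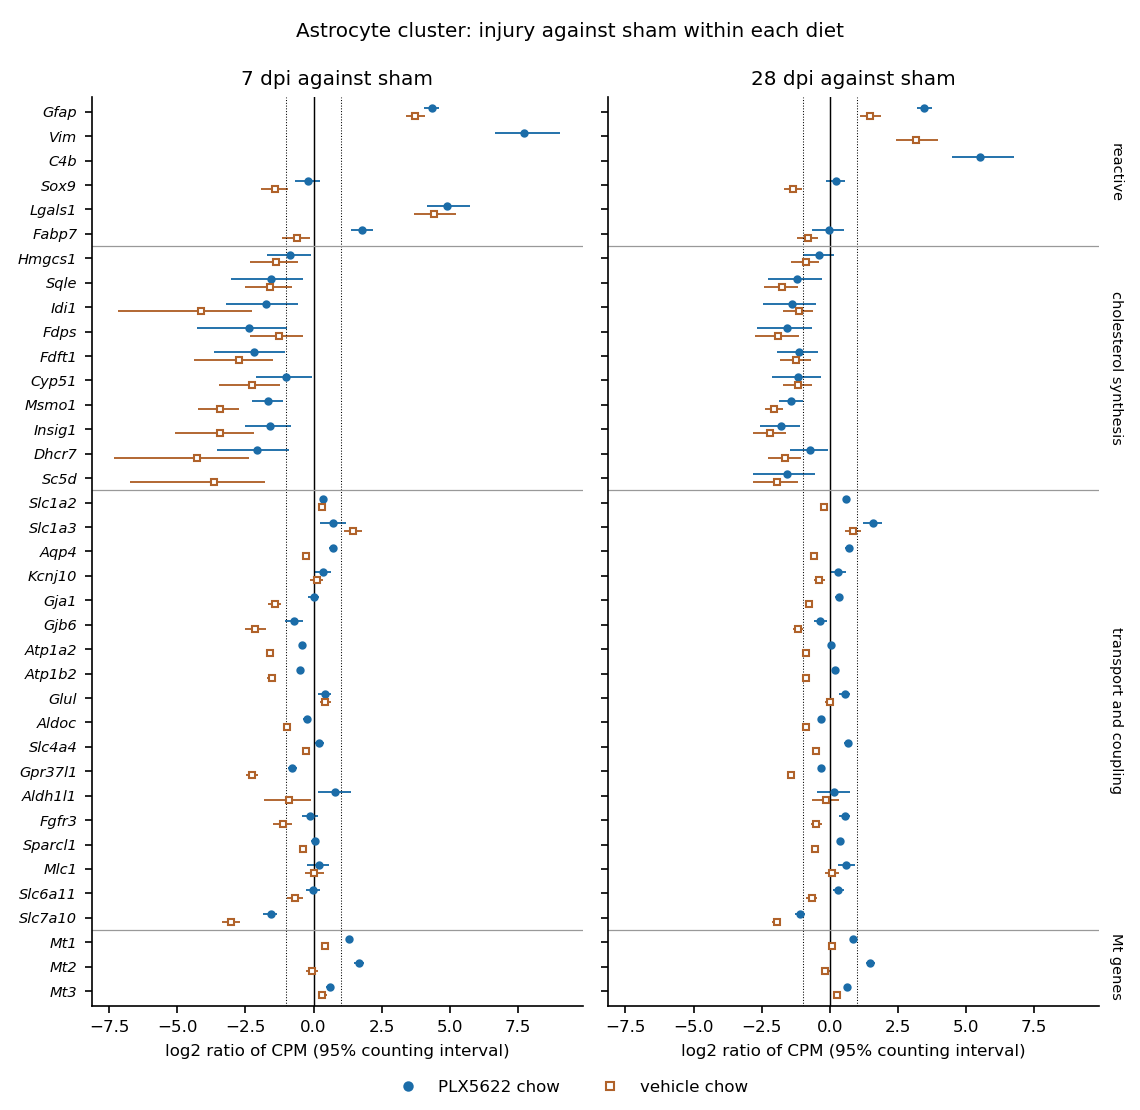
Log2 ratio of injured over sham CPM (x axis) in the astrocyte cluster for all but 1 of the genes of the named lists with at least 4 sham UMIs, with 95% counting intervals, for PLX5622 (filled blue circles) and vehicle (open orange squares). Dotted lines mark 2-fold; Gfap is at 4.34 and 3.48, Msmo1 at -1.67 and -1.42, and Aqp4 at 0.71 at both times under PLX5622.

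Genes of transmitter uptake, water transport and coupling stayed near sham. Slc1a2, the main glutamate transporter, was at 6191, 7913 and 9263 CPM, ratios of 0.35 (0.24 to 0.46) and 0.58 (0.49 to 0.67). Aqp4, the water channel of the endfeet, was at 2689, 4390 and 4394 CPM, ratios of 0.71 at both times, and Gja1, the gap junction protein connexin 43, at 2278, 2304 and 2890 CPM. Of 18 measured members 1 was lower past 2-fold at 7 dpi (median 0.03, and -0.15 with TMM factors). At 28 dpi 1 was higher, Slc1a3 (269.6, 448 and 805 CPM), and 1 lower (median 0.33). These counts are near or below the background, as 9.54% of all measured genes were lower at 7 dpi and 4.87% each way at 28 dpi. Slc7a10, which carries serine and glycine, was the exception on the low side, with 3809, 1276 and 1788 CPM and ratios of -1.58 (-1.84 to -1.33) and -1.09 (-1.28 to -0.91). Mt1 and Mt2, metallothioneins that bind zinc and copper, lay above sham. Mt1 was at 6777, 16778 and 12271 CPM (1.31, then 0.86) and Mt2 at 1242, 3942 and 3470 CPM (1.67, then 1.48).

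Several of the genes farthest from sham were outside the lists. Igfbp2, a binder of insulin-like growth factors, was at 1038 CPM in sham and 178 CPM in 28 dpi cords and had 21 UMIs at 7 dpi, ratios of -2.38 (-3.08 to -1.75) and -2.54 (-3.16 to -1.99), and was seen after thinning in 44.9%, 12.5% and 16.1% of cells. Olig1, a factor best known from the oligodendrocyte lineage, had ratios of -2.11 and -1.22, and Hsd11b1, which regenerates active corticosterone, of -1.97 and -0.95. Mfsd2a, a transporter of lysophospholipids, was at 681, 190.4 and 376 CPM, and Car14, a membrane carbonic anhydrase, at 618, 162 and 251 CPM. Malat1, a nuclear noncoding RNA, was at 166047, 71464 and 59688 CPM, ratios of -1.22 (-1.25 to -1.18) and -1.48 (-1.51 to -1.45). On the high side, Dhrs1, a dehydrogenase, was at 92.2, 533 and 495 CPM, ratios of 2.53 (1.97 to 3.10) and 2.42 (1.90 to 2.96), with 64.3% of its 7 dpi UMIs in 1 cell and a ratio of 1.53 without the deepest cells. Fxyd1, a regulator of the sodium pump, was at 411, 905 and 1616 CPM, and Slc38a1, a glutamine carrier, at 111, 428 and 416 CPM. Marcks, an actin-linked protein kinase substrate, was at 139.9, 486 and 515 CPM. Lgals1, which encodes galectin-1, had 88.0% of its 92 UMIs at 7 dpi in 1 cell. Asic1, an acid-sensing channel, and Arhgap5 had ratios of -1.85 and -1.39 at 28 dpi. Ftl1, the ferritin light chain, was at 358, 2323 and 686 CPM.

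Ribosomal protein genes were higher together at 7 dpi in this cluster, with 64 of 73 past 2-fold and a median of 1.47 (Rps12 at 220.1, 1095 and 363 CPM), and 7 of 73 at 28 dpi (median 0.52). In cells with fewer than 3 myeloid UMIs the count at 7 dpi was 36 of 71 (median 1.01). The summed level of the 12 myeloid genes in astrocytes was 121 CPM in sham cords, with 10 detected and Lyz2 and Aif1 at 0, and 2304 at 7 dpi and 963 at 28 dpi with all 12 detected. Cells with at least 3 myeloid UMIs were 2.45%, 12.8% and 3.74% of astrocytes. Hemoglobin transcripts were at 959, 343 and 877 CPM, and their part in the ratios was not tested.

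Vehicle astrocytes shared many of these genes at 7 dpi, with ratios of other sizes and, for some genes, of the other sign. Pearson's r across genes was 0.80 at 7 dpi (1019 genes) and 0.44 at 28 dpi (1133 genes). Of the 117 genes higher at 7 dpi and measured under both diets, 86 were past 2-fold in vehicle, and at 28 dpi 18 of 52, where 13.2% and 10.4% of all genes measured under both were higher in vehicle. Of the lower genes 83 of 96 at 7 dpi and 33 of 56 at 28 dpi were also lower past 2-fold in vehicle. Among all genes measured under both, 34.5% and 21.1% were lower in vehicle. Gfap was at 3.48 against 1.49 in vehicle at 28 dpi, a difference of 1.51 to 2.45. Sox9 was at -0.21 and 0.21 against -1.42 and -1.34, Gja1 at 0.02 and 0.34 against -1.43 and -0.76, and Mt2 at 1.67 and 1.48 against -0.04 and -0.17. Of the 18 transport and coupling genes 7 were lower at 7 dpi in vehicle, against 1 under PLX5622, where 34.5% of all genes measured under both were lower in vehicle and 9.54% under PLX5622, so that both counts are near or below the background. Cholesterol genes lay lower in vehicle too, with 10 of 10 past 2-fold (median -2.95, against -1.70) at 7 dpi. The median of all 1496 genes measured in vehicle was -0.44 there. Ribosomal genes were past 2-fold for 73 of 73 in vehicle at each time. Vehicle astrocytes held at least 3 myeloid UMIs in 5.16%, 63.8% and 50.2% of cells, well above the shares under PLX5622, so these values sit beside unequal levels of myeloid transcripts, whose part was not tested.

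Few endothelial genes were past 2-fold of sham, and myeloid transcripts were higher among these cells after SCI. At 7 dpi 36 of 2227 measured genes (1.62%) were higher and 27 (1.21%) lower past 2-fold, with a median of -0.07. At 28 dpi 14 of 1525 (0.918%) were higher and 28 (1.84%) lower, with a median of -0.10. TMM factors over all genes gave 49 and 17 at 7 dpi (DESeq2's 46 and 18), factors over measured genes gave 23 and 19 at 28 dpi, and with each cell counted alike the split at 7 dpi was 59 and 80.

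Cldn5, the claudin that seals the blood-brain barrier, was at 7243 CPM in sham cords against 5841 at 7 dpi and 4391 at 28 dpi. The ratios were -0.31 (-0.38 to -0.24) and -0.72 (-0.82 to -0.62). Slc2a1, the glucose transporter of the barrier, was at 2359, 2880 and 1535 CPM, ratios of 0.29 (0.18 to 0.39) and -0.62 (-0.79 to -0.45). Abcb1a, the drug efflux pump, stood nearly level at 1586, 1637 and 1518 CPM. Tjp1, the scaffold of tight junctions, was somewhat higher at 433, 653 and 658 CPM. Bsg, a partner of lactate carriers, was at 16514, 13349 and 9556 CPM. Of the barrier and transport list, 0 of 16 measured members passed 2-fold at either time, with medians of 0.08 and -0.21, and the count stayed at 0 with TMM factors, with each cell counted alike and under each cell filter, while the median ranged from -0.20 to 0.22 and from -0.46 to -0.12. With so few of all measured genes past 2-fold, a count of 0 of 16 is near the background share. In vehicle 1 of 16 was lower at each time, with medians of -0.59 and -0.76. The medians of all 3038 and 2213 genes measured in vehicle were -0.15 and -0.14. Mfsd2a was at 0.04 at 7 dpi against -0.96 in vehicle and Slco1a4, an organic anion carrier, at -0.13 against -0.87, differences of 0.52 to 1.48 and of 0.58 to 0.90. The angiogenesis and basement membrane list held 0 of 8 and 0 of 7 past 2-fold.

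Genes of leukocyte adhesion and of inflamed venules were higher at 7 dpi in few cells. Lrg1, which is made in inflamed venules, was at 30.6, 352 and 12.9 CPM, a ratio of 3.52 (2.83 to 4.31) at 7 dpi, with a UMI in 14 of 81 cells and 51.3% of UMIs in 1 of them. Ackr1, the chemokine-binding receptor of venules, was at 25.5, 166 and 0 CPM from 2 cells at 7 dpi. Il1r1, the interleukin-1 receptor, was at 32.3, 172 and 47.3 CPM, a ratio of 2.41 (1.69 to 3.20), from 17 cells. Ch25h, which makes 25-hydroxycholesterol, had 1, 116 and 7 UMIs, a ratio of 6.92 (4.41 to 12.23), with 67.2% in 1 cell. Of the list 4 of 8 measured passed 2-fold at 7 dpi (median 1.55), 1 of 5 without the deepest cells (median 0.10), and 0 of 4 at 28 dpi (median -0.49). Scgb3a1, a secreted protein, was more widely spread, at 42.5, 582 and 86.0 CPM and in 37 of 81 cells at 7 dpi. Ddit4, an inhibitor of mTORC1 that responds to hypoxia and glucocorticoid, was at 69.7, 444 and 198 CPM, a ratio of 2.67 (2.19 to 3.19) from 46 cells. Lcn2, an iron-binding acute phase protein, had 72.9% of its UMIs at 7 dpi in 1 cell.

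Spp1 was at 18.7 CPM in sham cords against 1250 at 7 dpi and 1036 at 28 dpi, which are ratios of 6.06 (5.21 to 7.07) and 5.79 (4.93 to 6.82). At 7 dpi 62 of 81 cells had a UMI, and after thinning 40.9% (29.3 to 53.2%) against 1.47% (0.04 to 7.92%) in sham cells, although 1 cell held 61.6% of the UMIs. At 28 dpi 19 of 65 cells had one and 1 cell held 89.6%, and the ratio without Scrublet doublets was 2.65. In cells with fewer than 3 myeloid UMIs the ratios were 5.72 and 4.86. The thinned share at 7 dpi overlapped that of T and NK cells (30.4%, 13.2 to 52.9%) and of astrocytes (25.0%, 9.77 to 46.7%), and the part of free RNA from MDMs in these ratios was not tested. Apoe was at 1060, 4489 and 4013 CPM (2.08 and 1.92), with 45.4% and 65.3% of the injured UMIs in 1 cell, and in cells with fewer than 3 myeloid UMIs its ratios were 0.42 and 0.72. Fth1 was at 2216, 5947 and 3359 CPM, a ratio of 1.42 at 7 dpi that held at 1.42 in those cells. Ctsd, Cd63 and Ctsb, lysosomal genes, led at 28 dpi with ratios of 2.54, 2.41 and 1.81, and 1 cell held 78.3%, 61.9% and 64.8% of their UMIs. Without Scrublet doublets these ratios were 0.44, 1.14 and 0.43, and in cells with fewer than 3 myeloid UMIs 0.58, 0.87 and 0.62. The disease-associated and lipid list passed 2-fold for 5 of 9 members at each time, but for 1 of 6 and 0 of 6 in cells with fewer than 3 myeloid UMIs. Tyrobp, Trem2 and Lyz2 are in both lists, so the filter lowers such counts in part by construction. The 12 myeloid genes summed to 134 CPM in sham cells, with 11 detected and Aif1 at 0, and to 1959 and 1454 CPM with all 12 detected. C1qa, a complement gene of macrophages, was at 23.8, 384 and 172 CPM with 64.5% in 1 cell at 7 dpi.

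Apart from Cd74, the 5 other genes lowest at 7 dpi included several known from pericytes and other mural cells. Vtn, vitronectin, was at 1033, 322 and 1467 CPM, Myl9, a smooth muscle myosin light chain, at 323, 63.7 and 211, and Higd1b, a pericyte gene, at 178, 33.6 and 138. Rgs4, a regulator of G proteins, was at 180.1, 35.4 and 215 CPM and Cald1, the actin binder caldesmon, at 530.2, 154 and 568. Few cells held most of these genes. Vtn, Myl9, Higd1b and Rgs4 had a UMI in 11, 10, 11 and 9 of 76 sham cells. At 7 dpi they had one in 9, 8, 6 and 4 of 81 cells. Cald1 had one in 27 and 22 cells. At 7 dpi 1 cell held 57.7% of the UMIs of Vtn, 30.6% of Myl9, 47.4% of Higd1b, 65% of Rgs4 and 32.2% of Cald1. At 28 dpi these 5 genes were within 2-fold of sham. Vtn had a ratio of -1.68 (-1.93 to -1.44) and Cald1 of -1.78 (-2.14 to -1.44) at 7 dpi, whereas both were higher than sham in vehicle. Myl9 and Rgs4, with ratios of -2.34 and -2.35, were higher in vehicle too (1.48 and 2.61), from 9 and 4 vehicle sham UMIs. Without cells of more than 3000 genes the ratios of Myl9, Vtn and Cald1 turned positive (3.76, 1.14 and 0.55). MHC class II genes followed single cells. Cd74 was at 233, 17.7 and 709.6 CPM with 100% of sham UMIs and 99.4% of those at 28 dpi in 1 cell, and H2-Eb1 was at 68.0, 7.08 and 288 CPM with 97.0% of those at 28 dpi in 1 cell.

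At 28 dpi the lowest endothelial genes included Jun at 1052, 727 and 323 CPM, a ratio of -1.71 (-2.07 to -1.36), and Jund at 804, 449.6 and 292 CPM. Clec14a, an endothelial surface lectin of vessel growth, was at 336, 142 and 94.6 CPM, ratios of -1.25 (-1.64 to -0.87) and -1.83 (-2.54 to -1.19). Mgll, the lipase of 2-arachidonoylglycerol, was at 163, 81.4 and 55.9 CPM, and the hemoglobin gene Hba-a2 at 556, 241 and 262. Of 16 immediate early genes 0 were past 2-fold at 7 dpi and 4 were lower at 28 dpi (median -0.46). Pearson's r with vehicle across genes was 0.46 at 7 dpi (2201 genes) and 0.43 at 28 dpi (1504 genes), and of the higher genes measured under both diets 16 of 34 and 6 of 14 were past 2-fold in vehicle, beside 2.14% and 2.19% of all genes measured under both.

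Ependymal cells, the ciliated cells that line the central canal, had few genes past 2-fold of sham, and cilia genes were not among them. At 7 dpi 33 of 1777 measured genes (1.86%) were higher and 4 (0.225%) lower, with a median of -0.01. At 28 dpi 5 of 1390 (0.36%) were higher and 4 (0.288%) lower, with a median of -0.03, and DESeq2's factors gave 6 and 2, while each cell counted alike gave 23 and 37. Foxj1, the master factor of motile cilia, was at 648 CPM in sham cords against 797 at 7 dpi and 665 at 28 dpi, which are ratios of 0.30 (0.07 to 0.53) and 0.04 (-0.22 to 0.30). Ccdc153, a coiled-coil protein of ciliated cells, was at 1819, 1290 and 1649 CPM, and Rsph1, of the radial spoke, at 1179, 831 and 787. All 3 stayed within 2-fold, as did each of the 15 measured cilia genes at both times (medians -0.29 and -0.22). In vehicle the cilia medians were -0.56 and -0.50, where all 2051 and 2241 measured genes had medians of -0.14 and -0.15. The count of cilia genes past 2-fold under PLX5622 is near the background share of this cluster.

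Filament and secreted genes stayed near sham in these cells. Vim was at 2275, 2315 and 1679 CPM, a ratio of 0.03 (-0.10 to 0.15) at 7 dpi. Clu, the chaperone clusterin, was at 4722, 4138 and 3890 CPM, and Mia, a small secreted protein, at 1584, 2014 and 1770. Gfap was the member that stood out, with 29.7, 174 and 83.5 CPM and a ratio of 2.55 (1.65 to 3.60) at 7 dpi from 20 of 52 cells. Of the list 2 of 13 passed 2-fold at 7 dpi, Gfap and Apoe (2302, 5690 and 3427 CPM, with 56.8% of the 7 dpi UMIs in 1 cell), and 0 of 12 at 28 dpi.

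Apart from Gfap, the ependymal genes farthest above sham at 7 dpi were those of macrophages and lysosomes, and 1 cell held most UMIs of each. Tyrobp, an adaptor of myeloid receptors, was at 48.6, 477 and 126 CPM, a ratio of 3.29 (2.61 to 4.07), with 94.4% of its UMIs at 7 dpi in 1 cell. Ctss, the macrophage cathepsin S, was at 81.0, 555 and 104 CPM with 95.2% in 1 cell, and Cyba, a subunit of the NADPH oxidase, at 62.1, 265 and 98.6 with 81.8%. The sham UMIs of Tyrobp and Ctss were also in 1 cell (94.4% and 93.3%), and without Scrublet doublets the 7 dpi ratios went from 3.29 to 7.44 and from 2.78 to 6.62. Gpnmb, a glycoprotein of lipid-laden macrophages, had no UMI in sham cells and 417 at 7 dpi, 96.4% of them in 1 cell. Ctsd was at 321, 1422 and 1146 CPM, ratios of 2.15 (1.87 to 2.44) and 1.83 (1.54 to 2.14), with 73.9% in 1 cell at 7 dpi and 19.2% at 28 dpi. Its median within single cells was 224, 192 and 390 CPM, so that the 7 dpi median was not above sham. Ctsb, cathepsin B, was at 310.3, 1299 and 711 CPM with 73.2% in 1 cell at 7 dpi. Spp1 had 1, 801 and 92 UMIs, a ratio of 9.05 (6.57 to 14.36) at 7 dpi, with 86.6% in 1 cell, a UMI in 42 of 52 cells and a ratio of 4.34 in cells with fewer than 3 myeloid UMIs. After thinning its share was 32.7% (19.9 to 47.5%), close to that of T and NK cells.

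Of the disease-associated and lipid genes 11 of 15 passed 2-fold at 7 dpi (median 2.06) and 2 of 7 at 28 dpi (median 0.36). In ependymal cells with fewer than 3 myeloid UMIs the counts were 0 of 8 (median -0.04) and 0 of 7 (median 0.05), over fewer measured genes at 7 dpi. Spp1 was not among those 8, although 35 of 45 such cells had a UMI of it at 7 dpi. Tyrobp, Trem2 and Lyz2 are in both lists, so the filter lowers such counts in part by construction. The same 12 myeloid genes summed to 402 CPM in sham cells, with 11 detected and Lyz2 at 0, and to 2091 and 1100 CPM with all 12 detected. Cells with at least 3 myeloid UMIs were 2.13%, 13.5% and 17.9%. In vehicle 12 of the 15 passed at 7 dpi, with a median of 3.28.

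**Figure D5:**
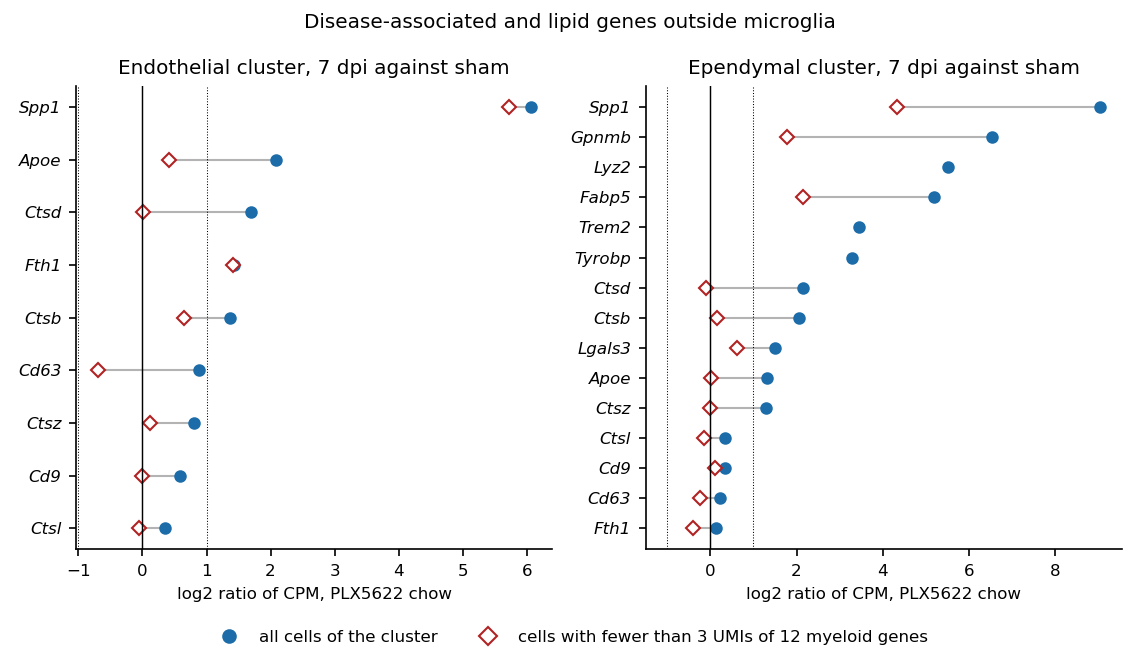
Log2 ratio of 7 dpi over sham CPM (x axis) for measured disease-associated and lipid genes in endothelial and ependymal cells of PLX5622-fed mice, in all cells (circles) and in cells with fewer than 3 UMIs of the 12 myeloid genes (diamonds), with a sham library of no UMI set to 3 counts. Diamonds are mostly near 0, with medians of 0.22 and -0.04 over the 6 and 8 genes that stayed measured, while Spp1, which T and NK cells also held, is at 5.72 and 4.34. Tyrobp, Trem2 and Lyz2 belong both to the 12 myeloid genes and to the disease-associated and lipid list.

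Outside that group, the lowest ependymal genes at 7 dpi were Hspa1a, the inducible heat shock protein (275, 80.6 and 167 CPM, a ratio of -1.77, -2.31 to -1.25), and Hopx, a homeodomain protein (378, 174 and 271 CPM, -1.12). Gas6, a ligand of the Axl and Mertk receptors, Gstm1, a glutathione transferase, and Ednrb, an endothelin receptor, had ratios of -0.90, -0.81 and -0.75, short of 2-fold. At 28 dpi Jund was at 899, 674 and 427 CPM (-1.07, -1.35 to -0.80), Tmed4 had a ratio of -1.33 and Ap2m1, of the clathrin adaptor, of -1.20. Pink1, the mitochondrial kinase, Anxa11, an annexin, and Lpar1, a lysophosphatidic acid receptor, had ratios of -0.96, -0.97 and -0.91. C1qa, at 75.6, 78.8 and 209.9 CPM, Kifap3, a kinesin adaptor of cilia, at 86.3, 149 and 197, and Cox6c, of the respiratory chain, at 607, 733 and 1029, were higher at 28 dpi (1.47, 1.19 and 0.76). Of the sham UMIs of C1qa 96.4% were in 1 cell, and without Scrublet doublets its ratio was 6.18. The ribosomal RNA transcript Rn45s was at 3195, 1831 and 4929 CPM. Pearson's r with vehicle across genes was 0.71 at 7 dpi (1696 genes), with 25 of 30 higher genes past 2-fold in vehicle, and 0.38 at 28 dpi (1384 genes), with 3 of 5, beside 3.60% and 2.60% of all genes measured under both.

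T cells and NK cells shared 1 cluster, and its 21 sham cells set the precision of all its ratios. At 7 dpi 5 of 212 measured genes (2.36%) were higher and 1 (0.472%) lower past 2-fold, with a median of 0.01. At 28 dpi 19 of 519 (3.66%) were higher and 11 (2.12%) lower, with a median of -0.01. TMM factors over all genes moved the latter median to 0.29 and gave 37 and 6, and DESeq2's gave 38 and 5.

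The few cytotoxic genes measured stayed within 2-fold of sham. Gzma, a granzyme of NK cells and killer T cells, was at 1572 CPM in sham cords against 2187 at 7 dpi and 1094 at 28 dpi, which are ratios of 0.48 (0.17 to 0.78) and -0.52 (-0.79 to -0.25), from 5, 6 and 23 cells. Ccl5, a chemokine of activated lymphocytes, was at 5786, 4866 and 6020 CPM, and Nkg7, a protein of cytotoxic granules, at 1444, 944 and 1270. Of the list 0 of 3 and 0 of 5 measured passed 2-fold (medians -0.25 and -0.18, the latter 0.11 with TMM factors). With 2.36% of all measured genes higher and 0.472% lower at 7 dpi, and 3.66% and 2.12% at 28 dpi, these counts are near the background. In vehicle 2 were lower at each time, beside 6.13% and 5.80% of all genes measured under both diets. Gzma was at -2.03 and -3.17 in vehicle, differences of 2.16 to 2.86 and of 2.31 to 2.98.

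Genes of naive and recirculating lymphocytes were lower at 28 dpi. Klf2, which keeps up the receptors for exit from lymph nodes, was at 973, 698 and 318 CPM, a ratio of -1.61 (-2.004 to -1.22) at 28 dpi. Satb1, a chromatin organizer of T cells, was at 521, 298 and 122 CPM (-2.09, -2.69 to -1.50), and Lef1, a factor of naive T cells, had a ratio of -1.30. Il7r, the interleukin-7 receptor, was the opposite case, at 344, 1150 and 494 CPM with a ratio of 1.74 (1.18 to 2.33) at 7 dpi. Of the list 3 of 4 measured were lower at 28 dpi (median -1.46), and 1 of 2 was higher at 7 dpi, Il7r. Cd3d, of the T cell receptor complex, was at 1110, 667 and 937 CPM, and of the lineage list 0 of 4 passed 2-fold at 28 dpi.

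S100a6, a calcium binder that is raised in effector and memory lymphocytes, was above sham at both times, at 314, 1160 and 1359 CPM. Its ratios were 1.88 (1.31 to 2.50) and 2.11 (1.60 to 2.67), against -0.62 and -0.34 in vehicle. Cells with a UMI were 9 of 21, 15 of 23 and 94 of 151, and after thinning 23.8% (8.22 to 47.2%), 43.5% (23.2 to 65.5%) and 50.7% (42.3 to 59.0%), so the intervals overlap. Crip1, a LIM protein, was at 589, 1098 and 1301 CPM, Ctla2a, a protease inhibitor, at 108, 369.6 and 514, and Wdr89 at 668, 955 and 1611. Cst3 (128, 934 and 580.3 CPM) and Ctsd (481, 790.4 and 1107 CPM), both abundant in macrophages, had 82.4% of their 7 dpi UMIs and 48.0% of their 28 dpi UMIs in 1 cell respectively. Bcl2, an inhibitor of cell death, and Rps12 had ratios of 1.29 and 0.67 at 7 dpi.

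On the low side at 7 dpi, Ltb, the lymphotoxin beta chain, was at 1149, 565 and 679.6 CPM, a ratio of -1.03 (-1.51 to -0.55). Shisa5, Limd2, Ubb and Rpl3 had ratios of -0.82, -0.85, -0.66 and -0.49, short of 2-fold. At 28 dpi Btg2 was at 658, 277 and 209 CPM (-1.66, -2.14 to -1.17), Junb, an AP-1 subunit, at 481, 452 and 171 (-1.50, -2.05 to -0.94), and Limd2 had a ratio of -1.19. Hba-a2 was at 717, 10.3 and 112 CPM with 98.6% of its sham UMIs in 1 cell. Of the immediate early list 3 of 6 were lower at 28 dpi.

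The myeloid list summed to 1994 CPM in sham T and NK cells with 6 of 12 detected and C1qb, C1qc, Lyz2, Aif1, Csf1r and Trem2 at 0, and to 3460 and 3087 CPM after SCI with 12 detected. It holds Tyrobp and Fcer1g, which NK cells also express. Its minimum of 3 UMIs left 3 sham cells, too few for a comparison. Pearson's r with vehicle across genes was 0.54 at 7 dpi (212 genes) and 0.51 at 28 dpi (517 genes).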

How the data were processed

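Single-cell RNA-seq libraries of sham, 7 dpi and 28 dpi cords of PLX5622-fed mice were analysed, with the vehicle libraries beside them. The authors aligned reads and made the UMI counts with Cell Ranger (3.0.2 per the file headers), then filtered and clustered the cells with Seurat, and the deposited count table has 16003 genes and a cluster number for each cell. The study's methods state that cells of more than 3000 genes were removed, yet 716 cells of the table exceed this. Clusters were named from markers.

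Members and the 35 gene lists were chosen with earlier results of these data known. Named genes were the 6 of highest lower bound and the 6 of lowest upper bound per comparison, where the pair of libraries held 100 UMIs or more and neither fewer than 10, plus list examples and markers. Spp1, Cst7, Ccl4, Apoc1, Ch25h, Vim and other list examples may have fewer than 10 sham UMIs. Ratios have exact conditional binomial 95% intervals, and shares Clopper-Pearson intervals. A library at 0 was set to 3 counts. Differences between diets have delta-method intervals where all 4 libraries held at least 10 UMIs. Both cover counting error only. Genes of T cell receptors and immunoglobulins and the bulk RNA-seq were not analysed here. A gene counted in its list is not reported here by itself.

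Alternatives were TMM and DESeq2 scaling, each cell weighted alike, minimums of 50 and 200 UMIs, a minimum of 500 genes per cell, other denominators, thinning of each cell to 1000 UMIs, cells with fewer than 3 myeloid UMIs, and removal of Scrublet doublets. Doublets stayed in the main values. Scrublet, run at 0.8% per 1000 cells, marked 2, 2 and 7 of the PLX5622 cells, so that marked shares follow the setting. Added after seeing the data were scaling over measured genes, cells of at most 3000 genes, and removal of the deepest cell of each cluster and library. The steps were tested on simulated counts. Counts were summed with pandas 2.3.3, numpy 2.4.6 and scanpy 1.11.5 under Python 3.11.15, and intervals came from scipy 1.17.1. DESeq2 1.42.0 and edgeR 4.0.16, under R 4.3.3, gave scaling factors and no test.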

Additional observations from a re-analysis of the deposited data

Results flagged for a closer look

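Values below mark genes whose ratio to sham had opposite signs under the 2 diets, each past 2-fold in both, with at least 10 UMIs in each vehicle library of the pair. The difference between diets was not tested, since each condition is 1 library. In endothelial cells at 7 dpi, Vtn had a log2 ratio of -1.68 under PLX5622 and 3.54 in vehicle, and Cald1 of -1.78 and 1.01. Under PLX5622, Vtn had 608 UMIs from 11 sham cells and 182 from 9 cells at 7 dpi, 57.7% of the latter in 1 cell. Without cells of more than 3000 genes the PLX5622 ratios of Vtn and Cald1 were 1.14 and 0.55, no longer opposite in sign. At 28 dpi, H2-Eb1 had a ratio of 2.08 under PLX5622 and -3.31 in vehicle, and 97.0% of its 67 UMIs at 28 dpi under PLX5622 were in 1 cell. Without Scrublet doublets the H2-Eb1 ratio under PLX5622 was -2.86. Of the same signs, but from 9 and 4 UMIs in vehicle sham cells, were Myl9 (-2.34 and 1.48) and Rgs4 (-2.35 and 2.61) in endothelial cells at 7 dpi, and Higd1b (-2.41) had no UMI in vehicle sham cells and 99 at 7 dpi.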

How the results depend on the processing

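No paired analysis was possible because each condition is 1 library. Of 128 alternative counts of genes past 2-fold, 85 were within 1.5 times the main count and 43 were not. In the order microglia, endothelial, astrocyte, T and NK, ependymal, each at 7 then 28 dpi, the main counts were 90, 137, 63, 42, 223, 112, 6, 30, 37 and 9. With a minimum of 50 UMIs they were 229, 266, 165, 165, 480, 310, 18, 89, 105 and 71. With 200 UMIs they were 36, 64, 28, 15, 86, 35, 0, 14, 12 and 3. Thinned to 1000 UMIs they were 21, 47, 2, 1, 19, 17, 0, 13, 3 and 3, from fewer measured genes. Microglia at 7 dpi had 172 with TMM and 162 with DESeq2 factors. With each cell counted alike, endothelial cells had 139 and 94 and ependymal cells 72 and 60. With at most 3000 genes per cell, endothelial cells had 21 and 19, astrocytes at 7 dpi 139, and ependymal cells 3 and 5. With fewer than 3 myeloid UMIs, T and NK cells at 7 dpi had 2 (from 3 sham and 5 injured cells, under the minimum of 20) and ependymal cells 9, and the microglia cluster had no such cells. The other causes were not tested.

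Outside the microglia and MDM clusters, shares at 7 and 28 dpi were 23.6% and 9.95% for endothelial cells, 11.4% and 16.4% for astrocytes and 15.2% and 12.9% for ependymal cells, and 23.1% for T and NK cells at 28 dpi. Among cells with at least 500 genes, astrocytes were 8.99% at 28 dpi. Signs turned for 11 of the 120 named ratios, 3 of them only in those few T and NK cells. With at most 3000 genes, Myl9 was at 3.76, Vtn 1.14 and Cald1 0.55 in endothelial cells and Tyrobp -1.28 and Ctss -1.15 in ependymal cells at 7 dpi. With fewer than 3 myeloid UMIs, Bcl2 was at -0.14, Ltb 2.44 and Shisa5 0.16 in these T and NK cells, too few to read, and Ctsd -0.093 and Cyba -0.30 in ependymal cells at 7 dpi. Without doublets, H2-Eb1 was at -2.86 in endothelial cells at 28 dpi.

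Depth limits low genes most in sham microglia (141635 UMIs) and sham T and NK cells (101795 UMIs), and variation between mice could not be measured.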
